A study of Mus musculus with 48 samples.

Results

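The genes described here encode the proteasome, the protease that degrades ubiquitin-tagged proteins, and were chosen by name. They are the 48 of 24444 genes in the deposited table whose symbol is *Psma*, *Psmb*, *Psmc*, *Psmd*, *Psme*, *Psmf* or *Psmg* followed by a number. By role they comprise 14 constitutive subunits of the 20S core (7 of the alpha ring, 4 of the beta ring without a catalytic site and the catalytic *Psmb5*, *Psmb6* and *Psmb7*), 17 subunits of the 19S regulatory particle (6 ATPases, 3 other base subunits and receptors, 8 of the lid), 3 catalytic subunits of the immunoproteasome, 3 chaperones of 19S base assembly, 4 chaperones of 20S assembly, 4 activators, 1 inhibitor, the testis alpha subunit *Psma8* and the thymus catalytic subunit *Psmb11*.

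The 20S core is a barrel of stacked alpha and beta rings with its active sites inside, and the 19S particle binds ubiquitin chains, unfolds the substrate with its ATPases and feeds it into the barrel. In immune cells and after interferon signaling, the catalytic subunits *Psmb5*, *Psmb6* and *Psmb7* are replaced by *Psmb8*, *Psmb9* and *Psmb10*, which changes the peptides made for MHC class I. In the brain the immunoproteasome is best known from microglia, and the constitutive proteasome is needed by neurons and by dividing progenitors.

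RNA was sequenced from the cerebral cortex (one hemisphere) of male C57BL/6J mice, with 6 WT and 6 *Chd8* V986*/+ (HET) mice per age, at embryonic day 14.5 (E14.5) and then at 1, 6 and 12 months after birth. The HET mice carry 1 *Chd8* allele with tandem stop codons placed by CRISPR/Cas9 in every tissue, in a line from a single founder backcrossed to C57BL/6J, and the WT controls were littermates. *Chd8* encodes an ATP-dependent chromatin remodeler, and the study asked how the loss of a copy changes the cortex with age. The values are variance-stabilizing transformation (VST) expression values on a log2 scale, and the single most common value was taken as the floor. A gene's value can be compared between mice but not with that of another gene, since the values are not per length, and the number of reads behind single values is unknown. The study lists a read depth for each library, which was not used here. Samples carry a number but no animal name, so *p* values measure the spread between these samples. *Chd8* was lower in every HET mouse than in every WT mouse of its age, with log2 fold-changes of −0.63, −0.67, −0.64 and −0.54 from E14.5 to 12 months.

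A few libraries stood apart. The root mean square deviation of a library from its group mean over the genes tested ranged from 0.168 to 0.327 with a median of 0.222, and the highest were WT E14.5 replicate 6 (0.327), WT 12-month replicate 6 (0.305), WT E14.5 replicate 5 (0.288) and HET E14.5 replicate 1 (0.273). In WT 12-month replicate 6, 39 of the 48 proteasome genes were above their group mean with a median deviation of 0.20, and in HET E14.5 replicate 1, 42 were above with a median of 0.17. Several comparisons between groups that rest on these mice are therefore given with and without them, and the correlations only with them. A list of 16 genes that mark midbrain, hindbrain and spinal cord averaged 5.61 ± 1.33 in WT and 4.64 ± 0.55 in HET mice at E14.5 (VST, SD, n = 6) and between 3.04 and 3.22 in the later groups, and *Hoxc8* averaged within 0.5 of the floor in both E14.5 groups.

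The 120 bases before the start are shown for 5 of the 6 catalytic genes because the results below turn on them. They are from RefSeq on GRCm38.p6, read along each gene's strand. Capitals mark TGANNNNGC, the core of the antioxidant response element through which *Nfe2l1* and *Nfe2l2* act, TTCNNNGAA, a STAT-type site, and CCAAT, searched on both strands. The core of an interferon response element, GAAA and GAAA with 2 bases of any kind between them, was searched as well.
Psmb5: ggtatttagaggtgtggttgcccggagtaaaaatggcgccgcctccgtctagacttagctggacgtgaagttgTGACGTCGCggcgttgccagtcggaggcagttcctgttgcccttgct
Psmb6: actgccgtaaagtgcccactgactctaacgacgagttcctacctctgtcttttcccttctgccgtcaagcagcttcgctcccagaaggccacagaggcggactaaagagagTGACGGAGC
Psmb8: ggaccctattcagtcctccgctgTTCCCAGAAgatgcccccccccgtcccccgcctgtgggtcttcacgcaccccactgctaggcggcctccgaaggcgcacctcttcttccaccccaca
Psmb9: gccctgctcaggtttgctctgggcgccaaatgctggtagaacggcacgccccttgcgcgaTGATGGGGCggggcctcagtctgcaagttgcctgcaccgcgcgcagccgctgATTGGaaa
Psmb10: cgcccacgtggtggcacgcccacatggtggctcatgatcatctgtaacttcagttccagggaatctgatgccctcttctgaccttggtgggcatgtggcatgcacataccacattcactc
These windows are chr14:54617996-54618115 (minus strand) for *Psmb5*, chr11:70525237-70525356 (plus) for *Psmb6*, chr17:34198075-34198194 (plus) for *Psmb8*, chr17:34187331-34187450 (minus) for *Psmb9* and chr8:105938393-105938512 (minus) for *Psmb10*. TGANNNNGC lay at −47 to −39 in *Psmb5*, at −9 to −1 in *Psmb6* and at −60 to −52 in *Psmb9*, counted from the start site, and TTCNNNGAA lay at −97 to −89 in *Psmb8*. The CCAAT of *Psmb9*, at −8 to −4, is on the opposite strand, and the *Psmb10* window held none of these letters. Over the promoters in the table, which run from 250 bases before to 50 after the start, TGANNNNGC occurred in 8 of the 11 constitutive 20S core genes with an entry (72.7%), in 23 of 40 proteasome genes (57.5%) and in 45.4% of 17586 genes. CCAAT occurred in 54.5%, 35% and 42.1% of the same sets, TTCNNNGAA in 0%, 7.5% and 9.23%, and the interferon element in 9.09%, 12.5% and 3.96%. Such matches are descriptions of letters and not sites of binding.

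From E14.5 to 1 month, the bulk of the proteasome genes fell and the immunoproteasome subunits rose. In WT mice, 40 of the 48 genes were lower at 1 month and 5 were higher at adjp < 0.1 (limma, Benjamini-Hochberg over all 17341 genes tested), against 41.7% lower and 43.9% higher of all genes tested. In HET mice the same 40 genes were lower and the same 5 higher, against 42.1% and 44.5% of 17291 genes. The genes that were higher in both were *Psmb8*, *Psmb9*, *Psmb10*, *Psmb11* and *Psmc5*, and those not called in either were *Psma8* and the ATPases *Psmc1* and *Psmc3*. The median log2 fold-change of the 48 was −0.44 in WT and −0.40 in HET mice, beside 0.035 and 0.040 over all genes tested. Quantile normalization moved the median of all genes to −0.088 and −0.089 and that of the proteasome genes to −0.52 and −0.56, so relative to all genes the members stood at −0.47 and −0.44 before and −0.44 and −0.47 after it. The signs of *Psma8*, *Psmc1* and *Psmc3*, which were not called, changed with the genotype or the scaling.

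**Figure D1:**
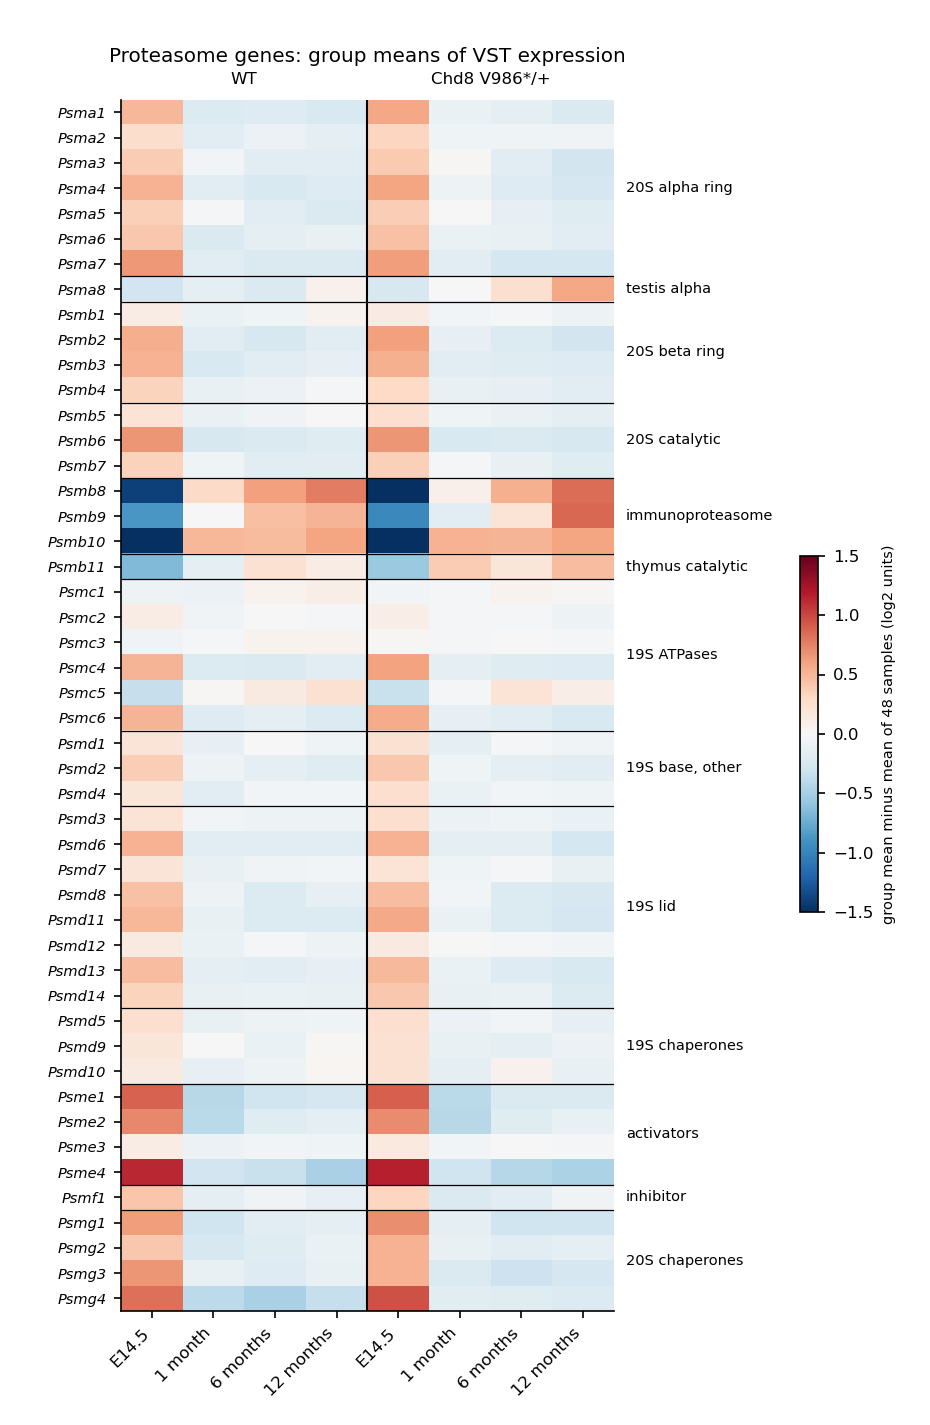
Group means of the 48 proteasome genes (rows, by role) in WT and *Chd8* V986*/+ mice at 4 ages (columns), as the difference from the gene's mean over 48 samples in log2 units, 6 mice a group. Most rows are red at E14.5 and pale later, and the rows of *Psmb8*, *Psmb9* and *Psmb10* run the other way, with *Psmb10* rising by 2.11 from E14.5 to 1 month in both genotypes; the colour scale stops at 1.5 in either direction.

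All 14 constitutive subunits of the 20S core fell in both genotypes. Their mean VST expression per mouse ranged from 10.95 to 11.18 in WT and 10.91 to 11.31 in HET mice at E14.5, and from 10.44 to 10.53 and 10.49 to 10.68 at 1 month. Every 1-month mouse was thus below every E14.5 mouse of its genotype. The log2 fold-changes of the 14 genes ran from −0.90 to −0.21 in WT mice with a median of −0.53, and from −0.88 to −0.17 in HET mice with a median of −0.47. The largest was that of *Psmb6*, the caspase-like catalytic subunit, which measured 11.36 at the lowest, 11.52 at the median and 11.62 at the highest in WT mice at E14.5 and 10.51, 10.59 and 10.70 at 1 month (−0.90 ± 0.05, SE, adjp = 9.4e-15), so that the 1-month level was 53.6% of the embryonic one. *Psma7* of the alpha ring fell by 0.82 and *Psmb3* of the beta ring by 0.75 in WT mice.

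The other constitutive catalytic subunits fell less. *Psmb5*, the chymotrypsin-like subunit, went from 10.36 to 10.75 (median 10.55) at E14.5 to 10.16 to 10.32 (median 10.26) at 1 month in WT mice, without overlap (−0.31 ± 0.07, adjp = 0.000456). In HET mice it went from 10.34 to 10.87 (median 10.60) to 10.20 to 10.38 (median 10.29), and 5 of 6 mice at 1 month were below all 6 at E14.5 (−0.31 ± 0.06, adjp = 4.45e-05). *Psmb7*, the trypsin-like subunit, fell by 0.40 in WT and 0.38 in HET mice, with no overlap in either.

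The 3 catalytic subunits of the immunoproteasome rose in both genotypes. *Psmb10*, which replaces *Psmb7*, measured 6.58 at the lowest, 6.79 at the median and 7.16 at the highest in WT mice at E14.5 and 8.86, 8.92 and 9.12 at 1 month, a 4.32-fold difference on the VST scale (2.11 ± 0.09, adjp = 9.46e-18). In HET mice it measured 6.49, 6.90 and 7.33 and then 8.93, 8.97 and 9.01 (2.11 ± 0.10, adjp = 1.29e-17). The ranges of the ages were more than a log2 unit apart in both genotypes. *Psmb8*, which replaces *Psmb5*, measured 3.68, 4.22 and 4.46 in WT mice at E14.5 and 5.48, 5.92 and 6.15 at 1 month (1.68 ± 0.14, adjp = 2.62e-11), and 2.89, 3.93 and 4.57 and then 5.45, 5.67 and 5.83 in HET mice (1.78 ± 0.20, adjp = 4.09e-09).

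*Psmb9*, which replaces *Psmb6*, rose by 0.87 ± 0.21 in WT mice (adjp = 0.000361) and by 0.79 ± 0.13 in HET mice (adjp = 1.94e-06). In WT mice it measured 3.22 at the lowest, 3.34 at the median and 4.40 at the highest at E14.5 and 3.98, 4.38 and 4.71 at 1 month. Of the 6 WT embryos, 5 were between 3.22 and 3.39 and replicate 5 alone was at 4.40, above 3 of the mice at 1 month. That embryo also had the highest mean of the midbrain, hindbrain and spinal cord markers of all 48 samples (7.47) and of 3 blood markers (10.90). Its mean of 5 markers of leukocytes other than microglia was the highest among the embryos (3.53), though 3 of the 5 averaged near the floor at E14.5. The part of any of these in its *Psmb9* level was not tested. In HET mice the ages did not overlap, at 3.14 to 3.58 and then 3.83 to 4.43. *Psmb8* and *Psmb9* lie near the floor at E14.5, where the VST scale understates a change.

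**Figure D2:**
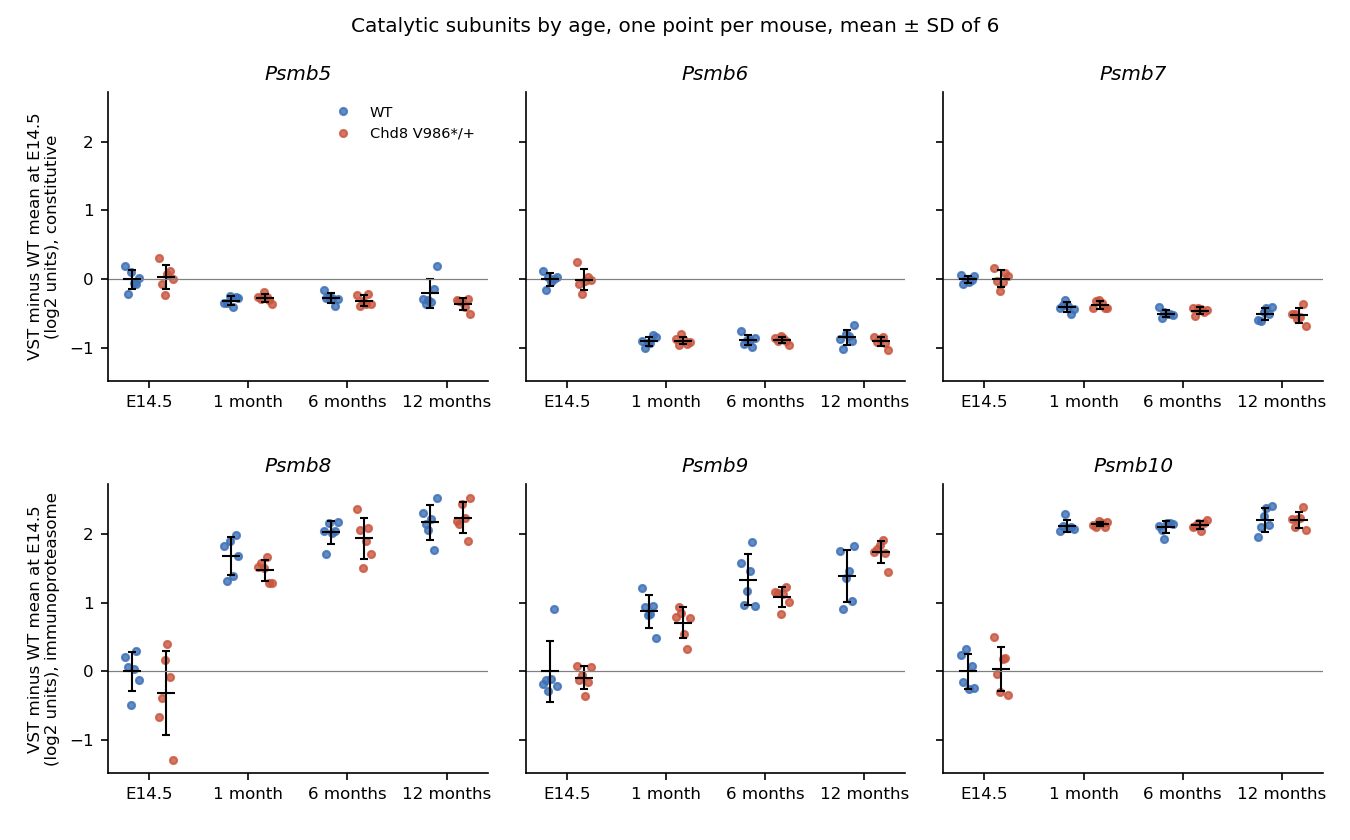
VST expression of the 6 catalytic subunits by age, each as the difference from its WT mean at E14.5 in log2 units, with 1 point per mouse and bars for mean ± SD of 6. The constitutive subunits (upper row) drop by 1 month and change little after it, and the immunoproteasome subunits (lower row) rise by 1 month, with *Psmb9* in 12-month HET mice between 4.94 and 5.40 against 4.33 to 4.72 at 6 months.

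Within each mouse, the difference between an immunoproteasome subunit and the subunit it replaces was taken as a measure of the balance of their mRNAs. Only its change is read, since the genes differ in length. The mRNAs may come from different cells of the tissue, and neither protein nor assembled proteasomes were measured. *Psmb8* minus *Psmb5* was −6.40 ± 0.34 (SD, n = 6) in WT embryos and −4.41 ± 0.23 at 1 month, and −6.74 ± 0.68 and −4.65 ± 0.13 in HET mice. *Psmb9* minus *Psmb6* went from −8.01 ± 0.46 to −6.24 ± 0.26 in WT and from −8.10 ± 0.18 to −6.42 ± 0.22 in HET mice. *Psmb10* minus *Psmb7* went from −4.58 ± 0.23 to −2.07 ± 0.07 and from −4.56 ± 0.26 to −2.07 ± 0.06. For all 3 pairs and both genotypes, every mouse at 1 month was above every embryo.

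Genes of other cell types and of MHC class I moved over the same step, in which most genes were called. The shares of all genes tested were 43.9% higher and 41.7% lower in WT mice, and 44.5% and 42.1% in HET mice. All 10 microglia markers were called higher at 1 month in both genotypes, and their mean went from 6.98 to 7.30 in WT embryos to 9.66 to 9.92 at 1 month and from 6.87 to 7.39 to 9.51 to 9.81 in HET mice. All 8 interferon-induced genes and all 9 genes of antigen presentation and its regulators were called higher in both genotypes, while all 5 progenitor markers were called lower, their means going from 12.16 ± 0.32 to 7.60 ± 0.26 in WT mice. Markers of other glia rose over the same step, with all 6 oligodendrocyte markers higher (6.69 ± 0.19 to 13.98 ± 0.14 in WT mice) and all 5 astrocyte markers higher (8.39 ± 0.15 to 12.64 ± 0.07) in both genotypes. The part of these cells in the proteasome values was not tested, and in bulk tissue fewer cells of a type and less RNA per cell cannot be told apart.

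All 4 activators of the core fell, with a median of −1.22 in both genotypes. *Psme4*, the single-chain PA200 activator, measured 11.85 at the lowest, 12.17 at the median and 12.32 at the highest in WT embryos and 10.62, 10.73 and 10.76 at 1 month, 37.3% of the embryonic level (−1.42 ± 0.07, adjp = 2.3e-16), and it fell by 1.46 in HET mice. *Psme1* and *Psme2*, which form the PA28 ring that is induced together with the immunoproteasome elsewhere, fell here while the immunoproteasome subunits rose. *Psme1* measured 10.13 to 10.46 (median 10.25) in WT embryos and 8.80 to 9.11 (median 8.96) at 1 month (−1.30 ± 0.09, adjp = 8.68e-14) and fell by 1.31 in HET mice. *Psme2* fell by 1.13 in both genotypes, from 9.06 to 9.42 to 7.96 to 8.19 in WT mice. *Psme3*, the nuclear PA28 gamma, fell by 0.20 in WT and 0.19 in HET mice, and 4 of 6 mice at 1 month were below all embryos in each. For the first 3 genes no mouse at 1 month reached the lowest embryo.

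The 19S particle changed less evenly than the core. Of its 17 subunits, 14 fell and 1 rose in each genotype, with medians of −0.34 in WT and −0.38 in HET mice, and all 8 lid subunits fell, among them the deubiquitinase *Psmd14*. The mean of the 17 went from 11.39 to 11.51 in WT embryos to 11.05 to 11.13 at 1 month. Among the 6 ATPases only 3 fell, and their fold-changes ran from −0.72 to 0.36 in WT and from −0.76 to 0.32 in HET mice. *Psmc4* fell by 0.76 in HET mice, where all 6 at 1 month (10.76 to 10.94) were below the embryos (11.47 to 11.79). *Psmc5* rose instead, from 11.03 at the lowest, 11.16 at the median and 11.21 at the highest to 11.43, 11.50 and 11.59 in WT mice (0.36 ± 0.04, adjp = 1.59e-08) and from 10.99 to 11.27 to 11.45 to 11.49 in HET mice (0.32 ± 0.04, adjp = 2.64e-08). The WT values of *Psmc1* (−0.013 ± 0.041) and *Psmc3* (0.035 ± 0.053) did not pass the test.

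All 4 chaperones of 20S assembly fell, with a median of −0.85 in WT and −0.79 in HET mice. *Psmg4* measured 7.64 to 7.91 in WT embryos and 6.33 to 6.72 at 1 month (−1.22 ± 0.11, adjp = 4.01e-11), and *Psmg1* 8.47 to 8.68 and then 7.49 to 7.80 (−0.92 ± 0.07). The 3 chaperones of the 19S base fell by less, with a median of −0.26 in WT and −0.34 in HET mice, and the inhibitor *Psmf1* fell by 0.55 and 0.54. *Psmb11*, within 0.5 of the floor in 9 of the 48 samples, was called higher (0.53 ± 0.26 in WT, adjp = 0.0642; 0.94 ± 0.24 in HET, adjp = 0.0007), but in WT mice within replicates 4 to 6 the difference was −0.0048. Over all 48 genes, 38 were lower and 3 higher without overlap in WT mice and 35 and 4 in HET mice, against 33.2% and 35.0% of genes in WT and 33.6% and 35.3% in HET mice.

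**Figure D3:**
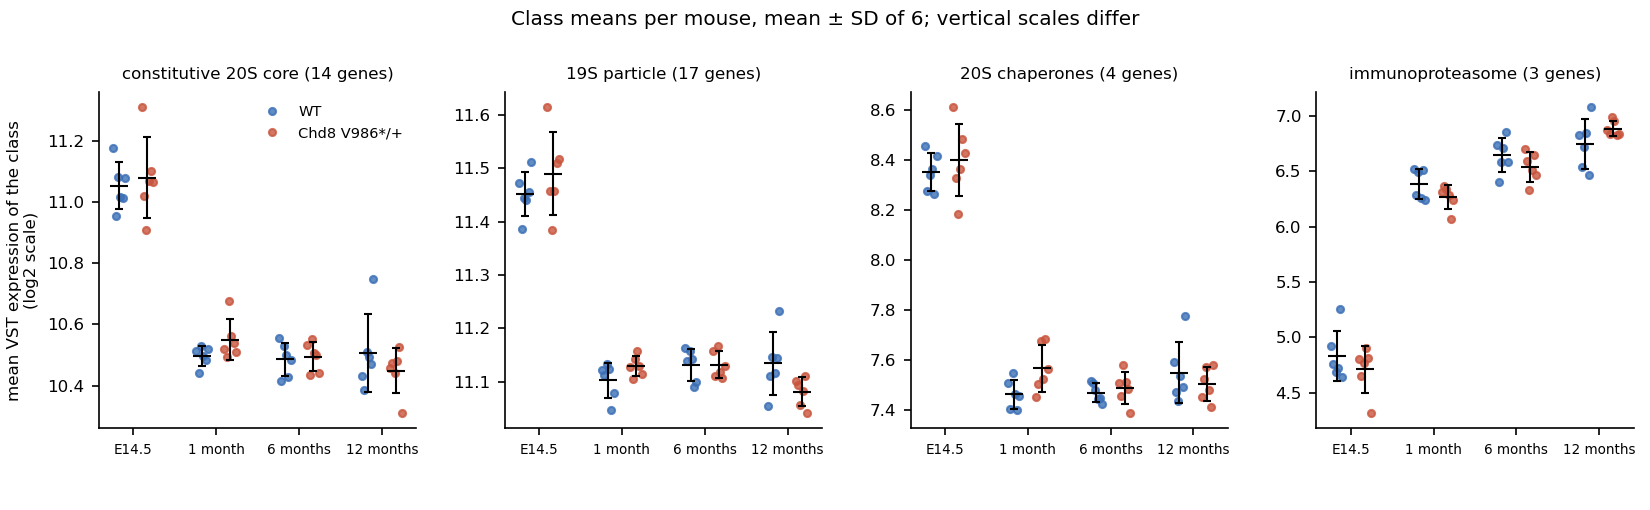
Mean VST expression per mouse (log2 scale) of the constitutive 20S core (14 genes), the 19S particle (17), the 20S assembly chaperones (4) and the immunoproteasome catalytic subunits (3) by age and genotype, with mean ± SD of 6 mice; vertical scales differ. The first 3 classes drop from E14.5 to 1 month and the immunoproteasome rises, and WT 12-month replicate 6 stands above the other 12-month mice in the core at 10.75.

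Between 1 and 12 months, the constitutive proteasome changed by small amounts and *Psmb8* and *Psmb9* went on rising. In WT mice 8 of 48 genes were called, 6 higher and 2 lower, against 10.3% higher and 11.8% lower of all genes tested. In HET mice 20 were called, 8 higher and 12 lower, against 16.9% and 17.4%. *Psmb8*, *Psmb9*, *Psmc5* and *Psme2* were higher in both, and the alpha subunit *Psma5* and *Psme4* were lower in both, so that the shared genes made up 6 of the 8 WT calls and 6 of the 20 HET calls. The WT count was 4 without WT 1-month replicate 4 and 5 without 1-month replicate 2 or 6. In both genotypes the steps from 1 to 6 and from 1 to 12 months share the mice of 1 month. The larger count in HET mice was not a difference between the genotypes that any gene's own test showed, as described with the genotype comparison.

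In HET mice 6 of the 14 constitutive core genes and 5 of the 17 19S genes were lower at 12 months, with medians of −0.092 and −0.047 over all members of each class. Without HET 12-month replicate 6, the lowest in the core, the lower calls went from 12 to 8. The median fold-change over all 48 genes, called or not, went from −0.036 to −0.020. The alpha subunit *Psma3* measured 10.54 at the lowest, 10.61 at the median and 10.77 at the highest at 1 month and 10.24, 10.34 and 10.47 at 12 months, without overlap (−0.28 ± 0.05, adjp = 0.000115). In WT mice *Psma3* went from 10.52 to 10.68 to 10.35 to 10.74, where replicate 6 alone was at 10.74 (−0.13 ± 0.06, adjp = 0.129). The lid subunit *Psmd8* fell in HET mice from 11.03 to 11.16 to 10.82 to 10.98 (−0.20 ± 0.05, adjp = 0.0031), and the alpha subunit *Psma4* fell by 0.18 (adjp = 0.0027). With quantile normalization the HET calls numbered 14, 8 higher and 6 lower, and 22 of 48 genes had a positive fold-change in place of 16.

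*Psmb9* gave the largest change among adult ages. In HET mice of 1 month it measured 3.83 at the lowest, 4.28 at the median and 4.43 at the highest. The same values were 4.33, 4.63 and 4.72 in HET mice of 6 months, and 4.94, 5.25 and 5.40 in those of 12 months. The 12-month mice lay above all younger ones, at 2.04-fold the 1-month mean (1.03 ± 0.13, adjp = 1.13e-06). In WT mice it measured 3.98 to 4.71 (median 4.38), 4.45 to 5.38 (median 4.81) and 4.40 to 5.32 (median 4.90), with 4 of 6 mice at 12 months above all of 1 month (0.51 ± 0.21, adjp = 0.091). The WT call was lost in 13 of 36 alternatives (adjp 0.0246 to 0.199), among them leaving out WT 12-month replicate 6 (0.42, adjp = 0.199). The HET call was lost in none of 36 (adjp 2.13e-07 to 1.3e-05). Among these alternatives, the values within each set of replicates alone had no test and were compared by direction only.

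*Psmb8* measured 5.45 to 5.83 (median 5.67) at 1 month and 6.05 to 6.68 (median 6.38) at 12 months in HET mice, without overlap (0.76 ± 0.20, adjp = 0.00508). In WT mice it measured 5.48 to 6.15 (median 5.92) and then 5.93 to 6.69 (median 6.34), with 5 of 6 mice at 12 months above all of 1 month (0.49 ± 0.14, adjp = 0.0221). The third immunoproteasome subunit did not pass the test, with *Psmb10* means of 8.94 ± 0.09 and 9.03 ± 0.17 for WT mice and of 8.97 ± 0.03 and 9.03 ± 0.12 for HET mice (adjp = 0.575 and 0.682). Within mice, *Psmb9* minus *Psmb6* rose to −5.79 ± 0.29 in WT and −5.37 ± 0.10 in HET mice at 12 months, and *Psmb10* minus *Psmb7* to −1.88 ± 0.10 and −1.86 ± 0.07. From 1 to 12 months the change was 0.38 in WT and 0.85 in HET mice for *Psmb8* minus *Psmb5*, 0.45 and 1.04 for *Psmb9* minus *Psmb6*, and 0.19 and 0.22 for *Psmb10* minus *Psmb7*. For each pair all 6 HET mice of 12 months lay above those of 1 month, and 5, 4 and 5 of 6 WT mice did. In this order, HET minus WT was −0.25, −0.18 and −0.004 at 1 month and 0.22, 0.41 and 0.02 at 12 months. At 12 months 3, 4 and 0 of 6 HET mice lay above all WT mice. These pair differences were not tested between genotypes. In the mm9 annotation *Psmb9* (chr17:34318932-34324697, minus strand) overlaps *Tap1* on the other strand, and *Psmb8* (chr17:34334666-34338399, plus strand) overlaps *Gm20496*. A second *Psmb9* entry lies on the same strand (chr17:34318933-34324709), so the *Psmb9* value is uncertain where reads were split between both entries. The methods describe stranded libraries, but whether strand was used in counting is not given in the sources used here.

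Of the 9 genes of antigen presentation and its regulators, 8 were called higher from 1 to 12 months in each genotype, among them *Tap1* (0.84 ± 0.16 in WT, adjp = 0.00051; 0.96 ± 0.16 in HET, adjp = 4.9e-05), *Tap2* (0.64 and 0.87) and the MHC class I gene *H2-K1* (0.53 and 0.72). Of the 10 microglia markers, 3 were higher and 2 lower in WT mice and 2 higher and 0 lower in HET mice, and their means ranged from 9.51 to 9.92 at 1 month and 9.60 to 10.00 at 12 months. Of the 8 interferon-induced genes, 2 were higher in WT mice, and 1 was higher and 1 lower in HET mice. Over all genes tested, 10.3% were called higher and 11.8% lower in WT mice, and 16.9% and 17.4% in HET mice. The part of any of these lists in *Psmb8* and *Psmb9* was not tested.

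*Psmc5*, which lies on chr11:106117468-106124434 in mm9, rose again after 1 month. In WT mice it measured 11.43 to 11.59 at 1 month, 11.54 to 11.71 at 6 months and 11.61 to 11.78 at 12 months (0.22 ± 0.04 from 1 to 12 months, adjp = 0.000805). In HET mice it measured 11.45 to 11.49, 11.62 to 11.74 and 11.52 to 11.68 (0.11 ± 0.04, adjp = 0.0337). The 12-month mice lay above all 1-month mice in both genotypes. The ATPase *Psmc1* rose in WT mice, from 11.48 to 11.63 at 1 month to 11.64 to 11.84 at 12 months (0.18 ± 0.04, adjp = 0.00297), and in HET mice it measured 11.54 to 11.68 and 11.50 to 11.73 (0.04 ± 0.04, adjp = 0.57).

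Among the activators, *Psme2* rose by 0.27 ± 0.09 in WT (adjp = 0.0397) and 0.31 ± 0.09 in HET mice (adjp = 0.00924), and *Psme1* by 0.20 ± 0.07 in HET mice (adjp = 0.0319) beside 0.17 ± 0.09 in WT mice (adjp = 0.199). *Psme2* has a near copy, *Psme2b*, so its value is uncertain where reads were split between them. *Psme4* fell by 0.19 ± 0.07 in WT (adjp = 0.0698) and 0.18 ± 0.06 in HET mice (adjp = 0.0211). *Psmf1*, the inhibitor, measured 9.58 to 9.64 at 1 month and 9.74 to 9.85 at 12 months in HET mice, without overlap (0.17 ± 0.04, adjp = 0.0018). The testis subunit *Psma8*, low at every age, measured 3.54 to 4.24 and then 4.24 to 4.83 in HET mice (0.58 ± 0.19, adjp = 0.0222), with 5 of 6 mice at 12 months above all of 1 month.

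**Figure D4:**
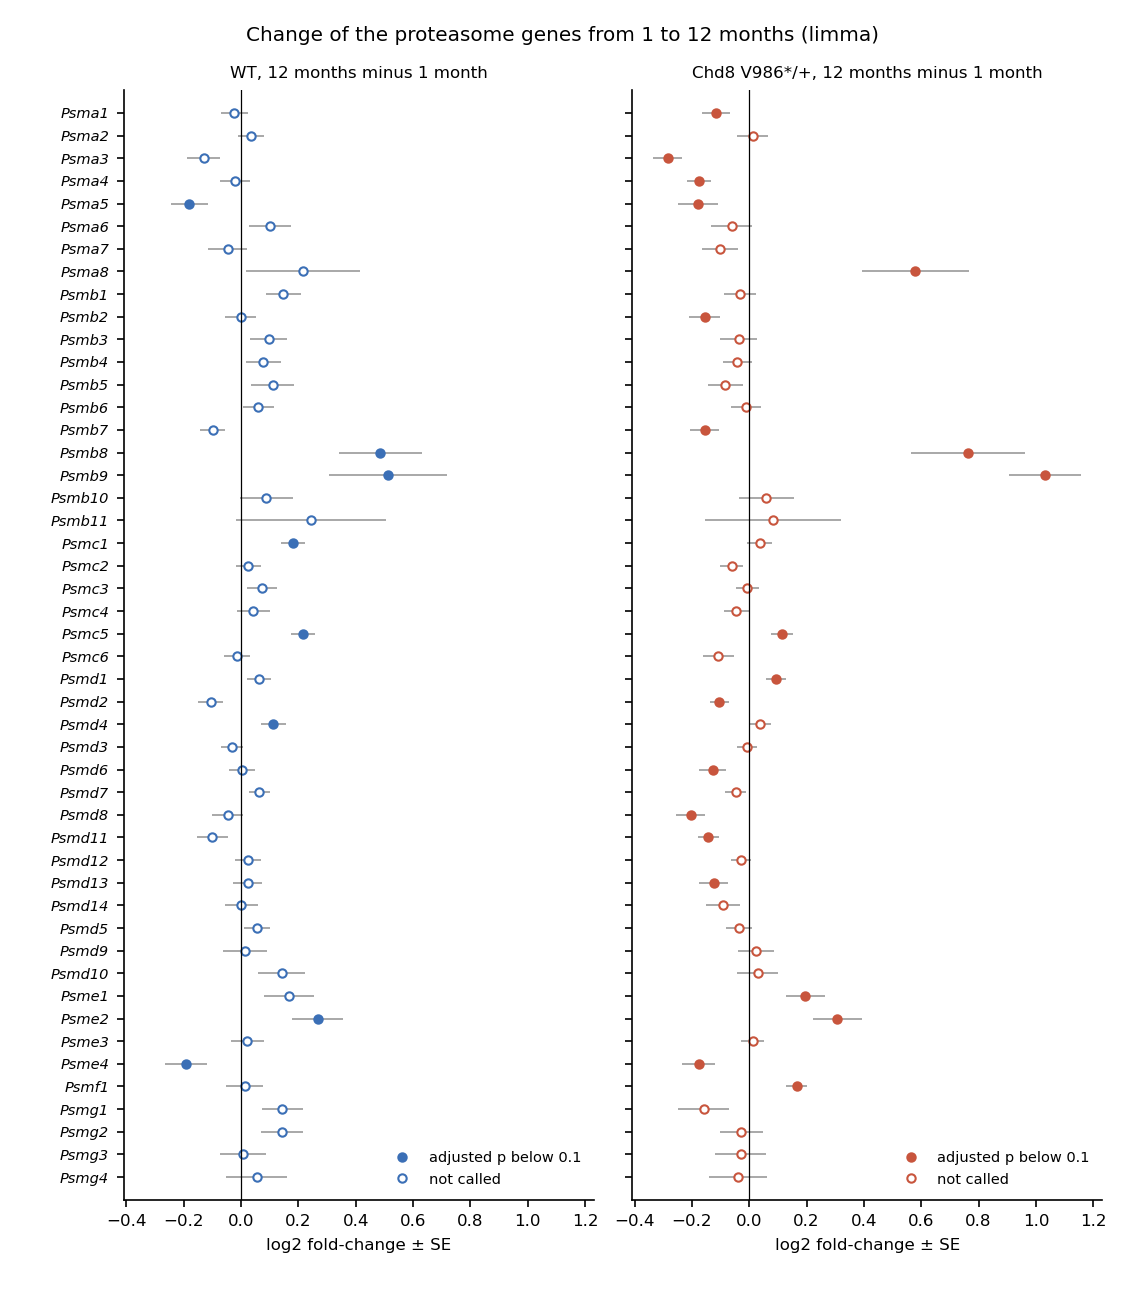
Log2 fold-change ± SE (horizontal axis) of the 48 proteasome genes from 1 to 12 months in WT (left) and *Chd8* V986*/+ mice (right), by limma, with filled points for adjp < 0.1. *Psmb8* and *Psmb9* lie farthest to the right in both, at 0.49 and 0.51 in WT and 0.76 and 1.03 in HET mice, and most other genes lie within 0.2 of 0.

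The steps within adult life held fewer calls. From 1 to 6 months, 3 genes were higher in WT mice (*Psmc1*, 0.14; *Psmc5*, 0.12; *Psmd1*, 0.11) and 0 lower, against 6.86% and 7.91%, and the WT count was 1 without WT 1-month replicate 1 or 5 or without 6-month replicate 4, 5 without E14.5 replicate 1 and 7 without 12-month replicate 6. In HET mice 6 were higher (*Psmb9*, 0.37; *Psme2*, 0.23; *Psmc5*, 0.22; *Psmd10*, 0.21; *Psme1*, 0.20; *Psmd1*, 0.12) and 6 lower (*Psma3*, −0.18; *Psmd8*, −0.16; *Psme4*, −0.14; *Psma4*, −0.12; *Psmd11*, −0.10; *Psmd2*, −0.08), against 11% and 10.8%, with 7 in all without HET 6-month replicate 5. *Psmc5* and *Psmd1*, a scaffold of the 19S base, were shared, 2 of the 3 WT calls and 2 of the 12 HET calls. From 6 to 12 months, limma called 0 genes in WT mice, against 0% higher and 0.0115% lower of all genes, with 2 at an unadjusted *p* below 0.05 beside 7.40% of all genes. In HET mice it called 1, against 0.613% higher and 1.27% lower. This was *Psmb9*, whose 12-month mice were all above those of 6 months (0.66 ± 0.13, adjp = 0.0135). The call was lost in none of 36 alternatives (adjp 0.00665 to 0.0839), where the values within each set of replicates alone were compared by direction only. In WT mice the change of *Psmb9* over this step was 0.05 ± 0.21 (adjp = 0.956). With quantile normalization the HET genes with a positive fold-change numbered 24 of 48 in place of 13 and the WT genes 38 in place of 28.

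Between the genotypes, 0 proteasome genes passed the test at any age. By limma at adjp < 0.1 the calls were 0 of 47 genes tested at E14.5 and 0 of 48 at each later age, against 0.00593%, 0.139%, 0.0927% and 0.0463% of all genes tested. *Psmb11* did not pass the filter on low values at E14.5 and all other genes passed it at every age. At an unadjusted *p* below 0.05 there were 0, 7, 4 and 3 proteasome genes, beside 4.56%, 8.80%, 7.59% and 11.6% of all genes. Few genes of any kind passed these fits. *Psmc5* is on the study's own list of differentially expressed genes, made with DESeq2 at the same threshold, and did not pass here. A *p* that misses the threshold does not show that the genotypes were equal.

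At E14.5, 38 genes were higher in HET mice and 9 lower, with a median of 0.033 beside 0.0010 over all genes. Without HET replicate 1 the split was 20 to 27 with a median of −0.011. With the midbrain, hindbrain and spinal cord markers as a covariate it was 24 to 23, and with the microglia markers 38 to 9 with a median of 0.032. The constitutive core averaged 11.05 ± 0.08 in WT and 11.08 ± 0.13 in HET mice, and 11.03 ± 0.08 without HET replicate 1. The lowest *p* values were those of *Psma4* (0.08 ± 0.05, adjp = 0.982), *Psmg2* (0.12 ± 0.07) and *Psmg3* (−0.13 ± 0.08).

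At 1 month, 36 genes were higher in HET mice and 12 lower, with a median of 0.036. All 14 genes of the constitutive core had a positive difference, with a median of 0.045 and a range from 0.00045 to 0.11, and their mean measured 10.44 to 10.53 in WT and 10.49 to 10.68 in HET mice, so the groups overlapped. Without HET replicate 3, the highest, 10 of the 14 were positive with a median of 0.021, *Psma5*, *Psma7*, *Psmb4* and *Psmb6* were negative, and the split over all 48 genes was 31 to 17 with a median of 0.022 and 1 gene at an unadjusted *p* below 0.05. Of the 10 microglia markers 9 were lower in HET mice at this age in sign and 0 were called, and with their mean as a covariate the split was 31 to 17 with a median of 0.018 and 0 genes at an unadjusted *p* below 0.05. HET replicate 3 also had the lowest microglia mean at this age (9.51), so that covariate and leaving out this mouse are not independent. With the midbrain, hindbrain and spinal cord markers as a covariate the split stayed 36 to 12, with a median of 0.036 and 6 genes at an unadjusted *p* below 0.05. The lowest *p* values were those of *Psma4* (0.09 ± 0.04, adjp = 0.49), the lid subunit *Psmd12* (0.09 ± 0.04, adjp = 0.50) and the 20S chaperone *Psmg2* (0.13 ± 0.06, adjp = 0.55). The inhibitor *Psmf1* at this age was the 1 case among the 4 ages in which a proteasome gene did not overlap between genotypes, at 9.66 to 9.75 in WT and 9.58 to 9.64 in HET mice (−0.08 ± 0.04, adjp = 0.55). Of all genes, 0.0867%, 0.439%, 0.300% and 0.497% were lower in every HET mouse from E14.5 to 12 months. Higher in every HET mouse were 0.168%, 0.381%, 0.225% and 0.364%. With these shares, 1 case over 4 ages and both directions is not read as particular to *Psmf1*.

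At 6 months the genes split 25 to 23 with a median of 0.0027. With the midbrain, hindbrain and spinal cord markers as a covariate they split 27 to 21, and with the microglia markers 26 to 22. *Psmg4*, a chaperone of 20S assembly, measured 6.25 at the lowest, 6.45 at the median and 6.72 at the highest in WT mice and 6.65, 6.76 and 6.87 in HET mice, of which 3 lay above all WT mice (0.30 ± 0.10, adjp = 0.458). Its differences at E14.5, 1 month and 12 months were 0.13, 0.23 and 0.13, which did not pass the test. *Psma8* differed by 0.45 ± 0.19 (adjp = 0.62) and *Psmd10*, a chaperone of the 19S base also known as gankyrin, by 0.15 ± 0.06 (adjp = 0.62).

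At 12 months, 17 genes were higher in HET mice and 31 lower, with a median of −0.044 beside 0.0046 over all genes. Without WT replicate 6 the split was 21 to 27 with a median of −0.016, and within replicates 1 to 3 and 4 to 6 the medians were 0.013 and −0.092. With the midbrain, hindbrain and spinal cord markers as a covariate the split was 15 to 33 with a median of −0.032. With the microglia markers it was 16 to 32 with a median of −0.035. The constitutive core averaged 10.51 ± 0.13 in WT and 10.45 ± 0.07 in HET mice, 10.46 ± 0.05 in WT mice without replicate 6 and 10.48 ± 0.03 in HET mice without HET replicate 6, so the difference was −0.058 with all mice and −0.010 or −0.031 without either mouse in turn. The 19S particle averaged 11.13 ± 0.06 and 11.08 ± 0.03, and 11.11 ± 0.04 without that mouse. The 6 ATPases and the 4 noncatalytic beta subunits were each lower in HET mice in sign, with medians of −0.062 and −0.12, and none of them passed the test. Without WT replicate 6 the medians were −0.033 and −0.056, and the ATPases *Psmc4* and *Psmc6* were positive. The 5 progenitor markers averaged 6.57 ± 0.13 in WT and 7.07 ± 0.44 in HET mice at this age, and their part in these values was not tested.

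The 12-month values of the 3 genes with the lowest *p* were as follows. *Psma8* measured 3.62 at the lowest, 4.05 at the median and 4.46 at the highest in WT mice and 4.24, 4.48 and 4.83 in HET mice (0.51 ± 0.18, adjp = 0.319), and 3 HET mice lay above all WT mice. *Psmc5* measured 11.61, 11.72 and 11.78 in WT and 11.52, 11.58 and 11.68 in HET mice (−0.13 ± 0.05, adjp = 0.329), with 4 HET mice below all WT mice, and a single fit of all 48 samples called it. *Psmb9* measured 4.40, 4.90 and 5.32 in WT and 4.94, 5.25 and 5.40 in HET mice (0.35 ± 0.17, adjp = 0.43), with 2 HET mice above all WT mice. The other immunoproteasome subunits differed by 0.07 ± 0.13 for *Psmb8* and 0.00 ± 0.08 for *Psmb10*.

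**Figure D5:**
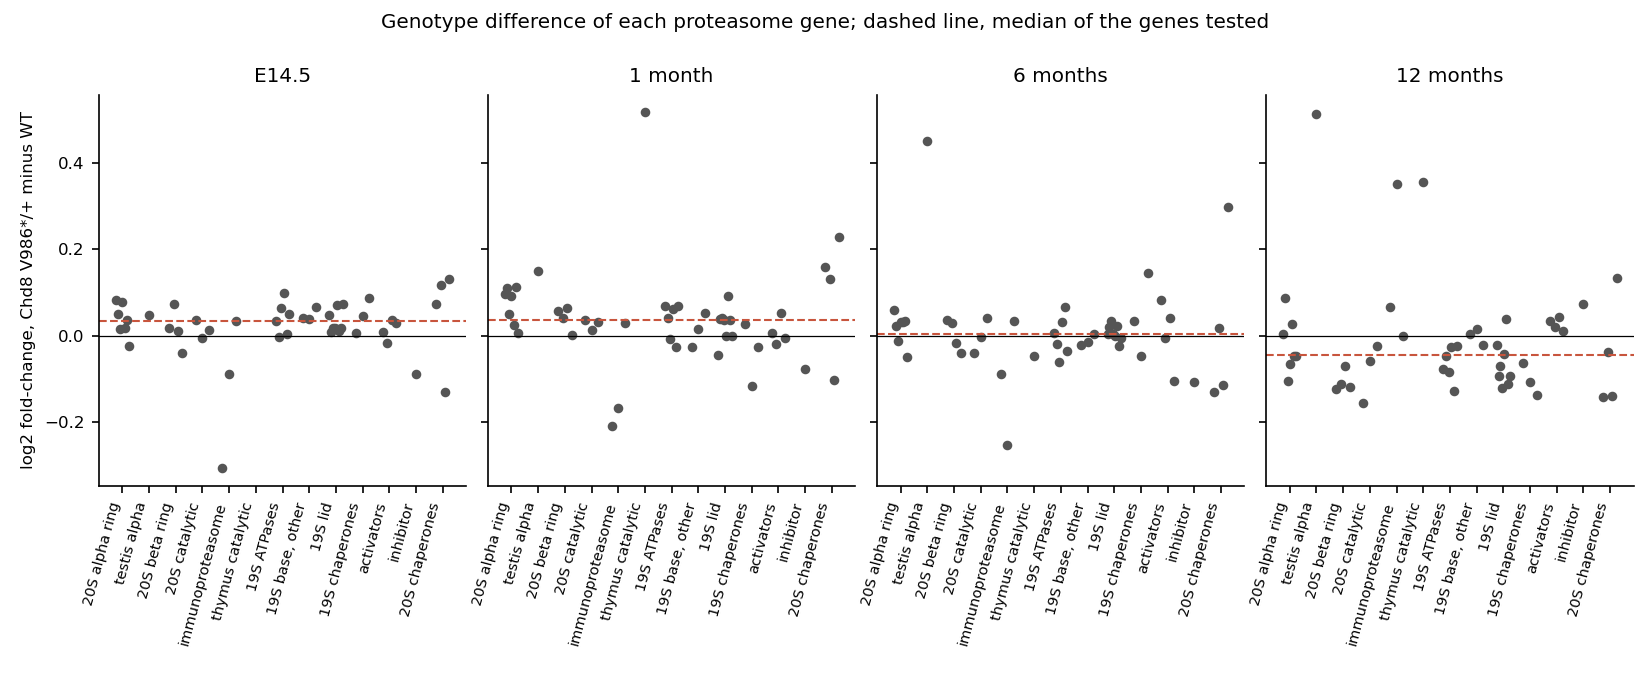
Log2 fold-change of each proteasome gene between *Chd8* V986*/+ and WT mice (vertical axis) by role (horizontal axis) at 4 ages, with the median of the genes tested as a dashed line. Most points lie within 0.2 of 0, the medians run from 0.036 at 1 month to −0.044 at 12 months, and the points beyond 0.4 are *Psma8* and *Psmb11*.

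Whether the genotype difference changed with age was tested gene by gene as the difference of genotype effects, and 0 of 48 genes passed for 12 months against E14.5, 1 month or 6 months, beside 0.0635%, 0.00578% and 0.0578% of all 17311 genes tested (limma). At an unadjusted *p* below 0.05 there were 7, 12 and 5 genes, beside 11.5%, 11.1% and 8.68% of all genes. The medians over the 48 genes were −0.076, −0.087 and −0.051, and 36, 36 and 34 genes were negative. Without WT 12-month replicate 6 the medians were −0.051, −0.048 and −0.0039. The lowest *p* values against 6 months were those of *Psmc5* (−0.19 ± 0.05, adjp = 0.259), *Psmd10* (−0.28 ± 0.11) and *Psmb9* (0.60 ± 0.24, adjp = 0.441). Those against 1 month were *Psmg1* (−0.30 ± 0.11, adjp = 0.29), *Psmc1* (−0.15 ± 0.06) and *Psma4* (−0.16 ± 0.06), and those against E14.5 were *Psmb2* (−0.19 ± 0.08, adjp = 0.34), *Psmc5* (−0.13 ± 0.05) and *Psmc3* (−0.15 ± 0.06). The larger rise of *Psmb9* in HET mice after 6 months was therefore not shown to differ from that in WT mice.

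Other genes of the pathway moved in mixed directions from E14.5 to 1 month. Over all genes tested, 43.9% were called higher and 41.7% lower in WT mice, and 44.5% and 42.1% in HET mice. Of 9 genes whose products join the proteasome, 4 rose and 4 fell in each genotype, near these shares. The deubiquitinases *Usp14* and *Uchl5* rose by 0.75 and 0.49 in WT mice, while the ubiquitin receptor *Adrm1* fell by 0.43 and the small 19S subunit *Sem1* by 0.88. Of 13 genes of ubiquitin and substrate delivery, 7 fell in each genotype, among them the ubiquitin-activating enzyme *Uba1* (−1.09 in WT mice) and the segregase *Vcp* (−0.69), and 3 rose in WT and 2 in HET mice. Of 5 regulators, 4 rose in WT and 3 in HET mice and 0 fell. *Nfe2l1*, which induces proteasome genes when the proteasome is inhibited, rose from 11.61 to 12.06 in WT embryos to 13.13 to 13.31 at 1 month (1.31 ± 0.07) while 14 of 14 core subunits fell. Between the genotypes limma called 0 genes of these lists and 0 of the antigen presentation list at any age.

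Over the 48 samples, with the group means removed, the median Pearson correlation was 0.66 over the 91 pairs of constitutive core genes, 0.48 over the 238 pairs of a core and a 19S gene, and 0.30 over the 136 pairs of 19S genes, beside −0.003 over all pairs of genes tested. It was 0.15 between core and immunoproteasome genes (42 pairs) and 0.085 among the 3 immunoproteasome genes. The chaperones of the 19S base stood at 0.51 with the core and those of 20S assembly at 0.37, while pairs within the lid were at 0.19 and pairs of activators at −0.49. *Psmb1* and *Psmb4* correlated most with the mean of the other core and 19S subunits, at 0.85 each. Of the immunoproteasome, *Psmb10* was at 0.56, *Psmb9* at 0.12 and *Psmb8* at −0.23. *Psme4* correlated least, at −0.42, and *Psmd2*, *Psmd3* and *Psmd11* of the 19S particle were at −0.0015, −0.16 and −0.044. The points share their library and its normalization, genes are not independent, and WT 12-month replicate 6 and HET E14.5 replicate 1 hold the largest shared deviations. The correlations were not computed without these libraries, so their part in the values is not known.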

How the data were processed

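The authors sequenced polyadenylated RNA of 48 cortices from libraries that the methods describe as stranded. They aligned the reads (STAR 2.5.2b), quantified them (Salmon 0.11.3) on mm9, and deposited VST values on a log2 scale. Their DESeq2 model is described as corrected for batch, the batch variable is not named, and the library kit is given differently in the labels and the methods. Over all groups, the means of replicates 1 to 3 and of replicates 4 to 6 were equal for every gene within 3.38e-14, so a difference between these sets cannot be seen in the deposited values, and the fits may count too many degrees of freedom. No counts were used, so the number of reads behind single values is unknown.

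Genes were tested with limma 3.58.1 (R 4.3.3, trend on) where the mean over the samples of the fit was at least 0.5 above the floor, the most common value of the table. Genotypes were compared within each age (12 samples), ages within each genotype (24 samples), and the difference of genotype effects over all 48. *p* values were adjusted over all genes tested by the Benjamini-Hochberg method, with adjp < 0.1 as the threshold. Values by class, motif searches and figures were made in Python 3.11.15 (numpy 2.4.6, pandas 2.3.3, matplotlib 3.10.9). The fits were tested on simulated data. The members and lists were chosen with earlier results of these data known. Full values were given for *Psmb5* to *Psmb10*, *Psme1* to *Psme4* and *Psmc5*, a gene on the study's list of differentially expressed genes, which is not independent of these samples. In each comparison called members were named up to 5 per direction by size, or the 3 with the lowest *p* where none passed; others named were chosen after their values were seen. The alternatives were adjp < 0.05, a filter at 1.5 above the floor and none, quantile normalization, median centring, the replicate number as a block, leaving out each sample, a single fit of 48 samples, each set of replicates alone or as a covariate, class medians, microglia or hindbrain marker covariates, a robust fit and no trend. Promoters were taken from RefSeq (GRCm38.p6) for 40 of the 48 genes, and *Psmb7* had no entry.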

Additional observations from a re-analysis of the deposited data

Results flagged for a closer look

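In 7 of 136 groups of 6 mice, for the 11 genes given in full and the 6 classes, 1 mouse lay far from the other 5 by Dixon's criterion (5.15%, where chance gives about 1 in 20). The constitutive 20S core was 10.7 in HET 1-month replicate 3, where the next mouse was at 10.6, and 10.7 in WT 12-month replicate 6, next to 10.5. That mouse was also high in the 19S base chaperones, at 9.51 against 9.27 for the next. *Psmb9* was 4.40 in WT E14.5 replicate 5, next to 3.39, and *Psmb10* was 9.12 in WT 1-month replicate 3, next to 8.94. WT 6-month replicate 2 was low for *Psmb8*, at 5.87 next to 6.18, and for *Psme1*, at 8.80 next to 9.06.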

How the results depend on the processing

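Over the 134 called changes of single genes there were 4822 values under alternatives, of which 4670 kept their direction and, where a test was run, the call. Within each set of replicates alone no test was run. The 4670 thus hold 134 values within replicates 1 to 3 and 133 within replicates 4 to 6 that were compared by direction only. The call was lost in 151, and 1 reversed, *Psmb11* from E14.5 to 1 month in WT mice, at −0.0048 within replicates 4 to 6. The cause was not tested here or for the values below. In a single fit of 48 samples 1 gene was called between genotypes at 12 months and 7 from 1 to 6 months in WT mice, which were 5 with median centring. At adjp < 0.05 the counts were 1 from 1 to 6 months and 4 from 1 to 12 months in WT mice and 7 from 1 to 6 months in HET mice. Leaving out 1 sample at a time gave 1 to 7, 4 to 11 and 7 to 13 for the same counts, 44 to 45 and 45 to 46 from E14.5 to 1 month in WT and HET mice, 16 to 21 from 1 to 12 months in HET mice and 0 between genotypes at each age. Quantile normalization gave medians of −0.52 in WT and −0.56 in HET mice from E14.5 to 1 month, and −5.52 for *Psmb9* minus *Psmb6* in HET mice at 12 months. The median difference of genotype effects was −0.015 for 12 months minus 1 month within replicates 1 to 3 and −0.12 for 12 months minus 6 months within replicates 4 to 6. With class medians in place of means, the immunoproteasome changed by 0.76 and the 19S particle by −0.12 from 1 to 12 months in HET mice, the 19S particle by −0.39 from E14.5 to 1 month in WT mice, and HET minus WT was 0.054 for the 19S particle at 1 month and −0.12 for the 20S chaperones at 6 months. Same-numbered WT and HET samples did not all correlate above 0.1 at any age (0.015 to 0.563 at E14.5), so the numbers were not taken as pairs, although the sets 1 to 3 and 4 to 6 have equal means in the deposited values. At E14.5, replicates 1 and 6 correlated at 0.563 and 0.381, beside means of −0.146 and −0.080 with other numbers. Replicate 5 stood at 0.015 beside 0.013. With the replicate number as a block the counts were 45, 4, 0 and 7 in WT mice and 45, 11, 1 and 20 in HET mice for the steps E14.5 to 1, 1 to 6, 6 to 12 and 1 to 12 months, and 0 between genotypes at each age and for the difference of genotype effects.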
